A study of Sus scrofa with 4 samples.

Results

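The 8 genes described here, DCN, LUM, BGN, FMOD, OGN, ASPN, PRELP and VCAN, encode core proteins of matrix proteoglycans and their close relatives. They were listed by name, out of 19550 protein-coding RefSeq gene models on placed chromosomes of the pig build Sscrofa11.1, with the lack of a called peak at the ends of DCN already known. Open chromatin was described in each gene model with 20 kb on both sides, called its window. The 8 windows held 55 of the 121788 regions obtained by merging the peaks of all libraries. ATAC-seq, in which the Tn5 transposase inserts into accessible DNA, had been run on porcine fetal fibroblasts (PFFs) labelled as skin fibroblasts. Libraries BRG1 1 and BRG1 4 came from cells labelled BRG1-overexpressed and carrying pTK-642-BRG1, and libraries control 1 and control 4 from wild-type cells carrying pTK-642. Cells of both groups had been starved of serum. The study asked what over-expression of BRG1, the ATPase of a chromatin remodelling complex, does to the chromatin of cells used as nuclear donors. The promoter of the construct is not in the labels. Nor do they say if the 2 libraries of each group are separate cultures, so p-values measure only the spread between these libraries, which may be technical.

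All of these proteins but versican belong to the small leucine-rich family, whose repeats bind collagen and set fibril diameter and spacing. Many carry chondroitin, dermatan or keratan sulfate chains, and several bind growth factors such as TGF-beta. Versican, the product of VCAN, is a large chondroitin sulfate proteoglycan that binds hyaluronan. Fibroblasts are a main source of most of them in connective tissue. DCN, BGN and ASPN form class I of the leucine-rich family, LUM, FMOD and PRELP belong to class II, and OGN to class III.

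Peaks numbered 96367 in BRG1 1 and 90851 in BRG1 4, against 107475 in control 1 and 105954 in control 4. Relative depth, read from the lowest background in each list, was 81.2% in BRG1 1 and 92.6% in BRG1 4 of that in control 1, and 93.5% in control 4. BRG1 4 had a median peak width of 541 bp, against 404 bp in BRG1 1, 403 bp in control 1 and 396 bp in control 4. A gene end was defined as 1 kb on either side of each end of a gene model, because the gene table gives no strand or transcript. Peaks marked an end in every library at all 10 matched fibroblast markers, and at 3 of 8 keratinocyte, 4 of 9 endothelial, 3 of 8 melanocyte or glial, 4 of 10 immune, 3 of 8 skeletal muscle and 5 of 8 chondrocyte markers, where 68.2% of all protein-coding models carried such peaks. Accessibility was measured in whole cultures, so fewer cells of a type and lower accessibility per cell cannot be told apart.

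Within the limit of 1 kb, most of these genes had no called peak at either end, a count that changed with a limit of 3 kb (below). LUM, BGN and FMOD, 3 of the 8, carried a gene-end peak in each of the 4 libraries, where 68.2% of all protein-coding models did. The other 5, DCN, OGN, ASPN, PRELP and VCAN, had one in no library, where 25.8% of all models had none. DCN was chosen with that known; among the other 7 genes, 4 had none. All 4 libraries gave the same answer for each of the 8 genes. Percentages over all genes are given as a background and no test was made, since the genes were chosen with results in view.

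Inside the 1 kb limit, LUM, BGN and FMOD each had a region called in all 4 libraries across an end, at 0 bp. Just outside it, the nearest such regions lay 1310 bp from an end of PRELP, 1690 bp from an end of VCAN and 1749 bp from an end of ASPN. DCN, at 3889 bp, and OGN, at 19498 bp, stood farther away. With 3 kb on either side of the ends, 6 of the 8 genes carried a peak in each library, where 77.5% of all models did, and OGN was the 1 gene with a peak in no library, where 17.1% of all models had none. DCN then had a peak in BRG1 4, control 1 and control 4 and not in BRG1 1. Of all protein-coding genes, 31.1% lay over 1 kb from a region called in all 4 libraries and 22.6% over 3 kb.

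**Figure D1:**
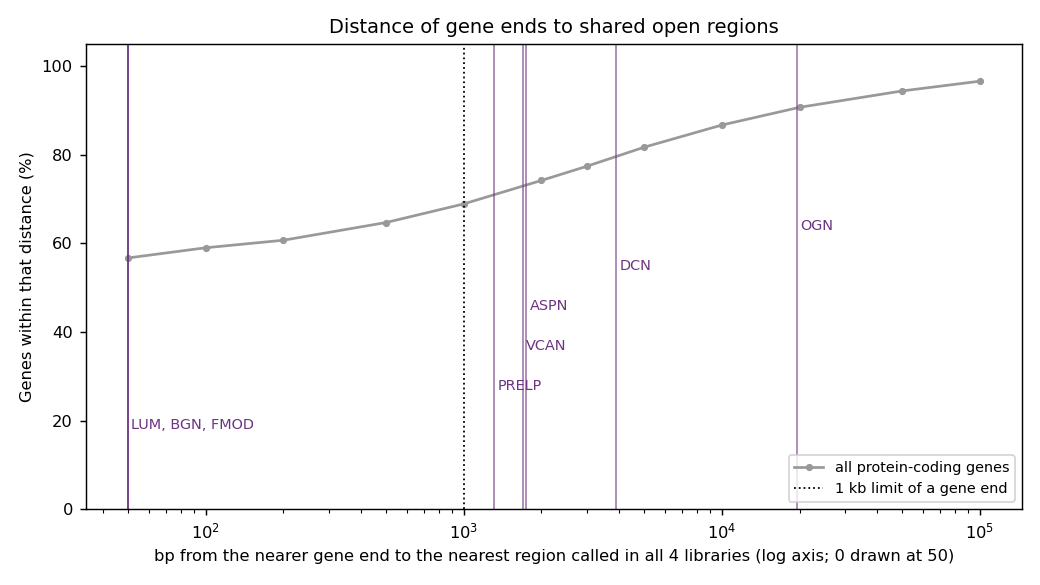
Share of all protein-coding genes (vertical axis, percent) whose nearer end lies within a given distance of a region called in all 4 libraries (horizontal log axis, bp; 0 is drawn at 50), with the 8 genes as vertical lines and the 1 kb limit dotted. LUM, BGN and FMOD lie at 0, while PRELP, VCAN, ASPN, DCN and OGN lie at 1310, 1690, 1749, 3889 and 19498 bp.

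DCN encodes decorin, which coats collagen fibrils and binds TGF-beta. Its model lies on chromosome 5 from 91678601 to 91713925. The window held 2 peaks in BRG1 1 and 3 in BRG1 4, against 3 in control 1 and 4 in control 4. Only 2 regions were called in all 4 libraries. The stronger lay outside the model, 7049 bp beyond its higher-coordinate end, from 91720974 to 91722043. Each peak was ranked by its deposited −log10 p-value within its own list, as a percentile in which 100 is the strongest peak. This region stood at percentile 76.3 in BRG1 1 and 89.0 in BRG1 4, against 82.9 in control 1 and 75.2 in control 4. Its summit, in tags (sequenced ends piled up there, solved from the deposited fold and p-value), held 63 in BRG1 1 and 101 in BRG1 4, against 89 in control 1 and 63 in control 4. The groups overlapped, and the highest value was in a BRG1 library. Tags were not scaled to depth in any region named here, and a percentile also depends on the length of its list.

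The second shared region of DCN lay inside the model, 3889 bp from its lower-coordinate end, from 91682490 to 91683142. It stood at percentile 47.5 in BRG1 1 and 68.8 in BRG1 4, against 62.4 in control 1 and 46.9 in control 4. Fainter peaks lay nearer that end, at 91681528 to 91681951, at percentile 1.21 in BRG1 4, 7.30 in control 1 and 8.15 in control 4, with none in BRG1 1. These are the peaks nearest to either end of DCN. The model held 1 other peak, of control 4 alone, at percentile 8.03 and from 91682156 to 91682360. No peak was called in the rest of the model, up to its higher-coordinate end.

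Of the 5050 other protein-coding genes that lack gene-end peaks altogether, those nearest to DCN in the percent of the window under peaks were PDE4D, a phosphodiesterase of cyclic AMP, CCPG1, a receptor of endoplasmic reticulum autophagy, and TRPM6, a magnesium channel. Over the 4 libraries their mean absolute difference from DCN was 0.0590, 0.0643 and 0.0674 percentage points. DCN itself had 1.96% in BRG1 1 and 2.58% in BRG1 4, against 2.28% in control 1 and 2.41% in control 4. The windows of PDE4D and TRPM6 held 70 to 81 and 10 to 15 peaks, and CCPG1 held 3 peaks in each library. PDE4D runs from 37897300 to 39406534 and TRPM6 from 227809511 to 228037923. Their windows are much longer than that of DCN, so their peak numbers cannot be set directly against its own.

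LUM encodes lumican, a keratan sulfate proteoglycan needed for regular collagen spacing in cornea and skin. It lies next to DCN, on chromosome 5 from 91748871 to 91756381, and the 2 windows overlap without sharing a region. A region across its lower-coordinate end, from 91748578 to 91749190, was the strongest of the window. It stood at percentile 78.8 in BRG1 1 and 77.6 in BRG1 4, against 80.2 in control 1 and 81.2 in control 4. Its summit held 75 tags in BRG1 1 and 65 in BRG1 4, against 84 in control 1 and 87 in control 4. Both values were lower in both BRG1 libraries, and the gaps between percentiles were small. The tags are unscaled, and relative depth was 81.2% in BRG1 1, 92.6% in BRG1 4 and 93.5% in control 4 of that in control 1. The BRG1 lists were also shorter, and the part of depth and list length in this order was not tested. The share of this order over the genome was not counted, so it is not read as a difference between the groups. A region 2033 bp inside that end was nearly level, at percentiles 47.5 in BRG1 1 and 47.8 in BRG1 4, against 47.3 in control 1 and 48.7 in control 4. Nearest to the other end, 2698 bp inside it, lay a peak of control 4 alone, at percentile 23.8.

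The gap between DCN and LUM also held shared regions. A pair of them lay 20138 and 21259 bp beyond DCN, just outside its window, and 14431 and 12734 bp from LUM. The one nearer to LUM, from 91735184 to 91736137, stood at percentile 61.8 in BRG1 1 and 66.5 in BRG1 4, against 68.3 in control 1 and 70.4 in control 4. The data do not assign them to either gene. KERA and EPYC, the keratocan and epiphycan genes of the same leucine-rich cluster, lacked gene-end peaks in each of the 4 libraries.

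LUM had 5 peaks in BRG1 1 and 6 in BRG1 4, against 7 in each control library (exact permutation p = 0.33, the smallest that 2 against 2 libraries can give). It was the 1 gene of the 8 with fewer peaks in both BRG1 libraries than in both controls, where 20.4% of 18273 gene windows with any peak had fewer. In lists cut to an equal length of 90851 peaks, LUM had 5 and 6 peaks in BRG1 1 and BRG1 4, against 6 in control 1 and 7 in control 4, so that the groups touched. With flanks of 50 kb, the window of DCN had fewer peaks in both BRG1 libraries than in both controls, by 5 in the mean (BRG1 minus control, −5.0). That window takes in LUM, so it is not a separate observation. The share of all windows with this order was not counted at 50 kb. The length under peaks overlapped between the groups, at 1940 bp in BRG1 1 and 3002 bp in BRG1 4, against 2469 bp in control 1 and 2607 bp in control 4.

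BGN encodes biglycan, the class I relative of decorin. It lies on chromosome X from 124282048 to 124295450. A region across its lower-coordinate end, from 124281279 to 124282295, was level in all libraries, at percentiles 57.2 in BRG1 1 and 56.4 in BRG1 4, against 56.9 in control 1 and 56.8 in control 4. The strongest region lay 2146 bp inside that end, from 124284194 to 124284803. It stood at percentile 88.3 in BRG1 1 and 74.5 in BRG1 4, against 91.9 in control 1 and 90.1 in control 4. Its summit held 149 tags in BRG1 1 and 80 in BRG1 4, against 193 in control 1 and 170 in control 4. Both values were lower in both BRG1 libraries, BRG1 4 being the lowest. The tags are unscaled, the BRG1 lists were shorter, and the share of this order over the genome was not counted. In a region inside the model, 4231 bp from the other end, BRG1 4 was instead the highest and BRG1 1 the lowest. It stood at percentile 61.2 in BRG1 1 and 78.4 in BRG1 4, against 68.2 in control 1 and 65.9 in control 4.

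BGN was the 1 gene of the 8 with more peaks and more length under peaks in both BRG1 libraries than in both controls. It had 7 peaks in each BRG1 library, against 6 in each control library, where 1.38% of windows had more peaks in both BRG1 libraries. The length under peaks was 3055 bp in BRG1 1 and 3848 bp in BRG1 4, against 3024 bp in control 1 and 2667 bp in control 4, where 14.3% of windows were higher in both BRG1 libraries and 14.6% lower. BRG1 libraries averaged 3452 ± 561 bp and control libraries 2846 ± 252 bp (SD, n = 2 each), and each comparison had an exact permutation p of 0.33. The BRG1 length exceeded the control mean by 209.5 bp without BRG1 4 and by 1002 bp without BRG1 1. In lists of equal length the groups met or overlapped, with 6 peaks in BRG1 1 and 7 in BRG1 4, against 6 in control 1 and 5 in control 4. The length was then 2810 bp in BRG1 1 and 3848 bp in BRG1 4, against 3024 bp in control 1 and 2457 bp in control 4.

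The window of BGN held the 1 BRG1-only region of all 8 windows, meaning a region with a peak in both BRG1 libraries and in neither control. It lay on chromosome X from 124265492 to 124266093, 15955 bp outside BGN and 104 bp from an end of LOC100623862, another protein-coding model. The peaks stood at percentile 12.4 in BRG1 1 and 11.6 in BRG1 4, among the weaker ones of both lists. They shared 89 bp, out of 224 bp in BRG1 1 and 467 bp in BRG1 4. When peaks had to overlap by 50% of the shorter one to be merged, there was no BRG1-only region in any of the windows. Near the outer edge of the window, 19479 bp from BGN, lay a region of BRG1 1, control 1 and control 4, at percentiles 31.6, 53.5 and 51.2, that was not called in BRG1 4.

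FMOD encodes fibromodulin, a class II protein that competes with lumican for collagen. It had the densest window, on chromosome 9, with the model from 64062995 to 64073853. There were 8 peaks in BRG1 1 and 7 in BRG1 4, against 8 in each control library, and 7 of its 8 regions were called in all 4 libraries. The strongest region of all 8 windows lay 7783 bp outside its lower-coordinate end, from 64054136 to 64055212. Its percentile was 96.8 in BRG1 1 and 97.6 in BRG1 4, against 97.5 in control 1 and 97.3 in control 4. The summit held 288 tags in BRG1 1 and 292 in BRG1 4. Tags were solved only for peaks below a −log10 p of 250, and none were solved here in control 1 or control 4. BTG2, an anti-proliferative gene, had its nearest end 25200 bp from FMOD, and the region lay nearer to FMOD than to it.

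Both ends of FMOD carried a shared region. The one 195 bp outside the lower-coordinate end stood at percentile 55.8 in BRG1 1 and 65.0 in BRG1 4, against 50.8 in control 1 and 61.8 in control 4. The one across the higher-coordinate end, from 64073124 to 64074197, stood at percentile 66.5 in BRG1 1 and 65.3 in BRG1 4, against 69.0 in control 1 and 70.8 in control 4. FMOD was the 1 gene of the 8 with peaks at both ends. Peaks covered 8.44% of its window in BRG1 1 and 9.53% in BRG1 4, against 9.12% in control 1 and 9.05% in control 4, and the mean exceeded that of 92.2% of gene windows.

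PRELP, on the same chromosome from 64190978 to 64207008, encodes a heparin-binding class II protein. Its strongest region lay 12391 bp outside the lower-coordinate end, from 64177541 to 64178587, at percentile 91.0 in BRG1 1 and 85.5 in BRG1 4, against 93.9 in control 1 and 92.6 in control 4. The summit held 121 tags in BRG1 1 and 80 in BRG1 4, against 168 in control 1 and 151 in control 4. Both measures were lower in both BRG1 libraries, BRG1 4 being the lowest. The tags are not scaled to depth, and the BRG1 lists were shorter. How many regions over the genome have this order was not counted, so it is not read as a difference between the groups. A region 4018 bp inside the lower-coordinate end, which also overlapped the non-coding model LOC106507842, stood at percentile 79.6 in BRG1 1 and 84.8 in BRG1 4, against 79.3 in control 1 and 82.8 in control 4. The region nearest to the other end, 1310 bp inside it, stood at 63.8 in BRG1 1 and 47.7 in BRG1 4, against 67.8 in control 1 and 64.8 in control 4.

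The window of PRELP reaches OPTC, the class III opticin gene, 4469 bp away. OPTC had a gene-end peak in BRG1 1, BRG1 4 and control 1 and not in control 4. That region, from 64221552 to 64222096, stood at percentile 17.7 in BRG1 1 and 26.6 in BRG1 4, against 45.4 in control 1.

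OGN, which encodes osteoglycin or mimecan, had the emptiest window. Its model lies on chromosome 3 from 42116521 to 42135940 and held no peak in any library, where 16.8% of all models held none. The window held 2 peaks in BRG1 1 and 2 in BRG1 4, against 2 in control 1 and 1 in control 4, all of them at least 18476 bp from OGN. They lay at the end of OMD, the osteomodulin gene beside it. The stronger region there, from 42155438 to 42156044, stood at percentile 18 in BRG1 1 and 61.1 in BRG1 4, against 64.9 in control 1 and 58.7 in control 4. BRG1 1 was the low library, with 15 tags at the summit, while BRG1 4 had 31, control 1 had 40 and control 4 had 33.

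ASPN, which encodes asporin, the class I member with an aspartate-rich stretch, lies on the same chromosome from 42165553 to 42192902. It shares those regions beside OMD with OGN, so that both windows count them. All of these regions, and those of ASPN, also lie inside the long model of CENPP, a centromere protein gene, which spans OGN and ASPN. Inside ASPN, 4 regions were called in all 4 libraries. The strongest, from 42178850 to 42179473, stood at percentile 56.3 in BRG1 1 and 39.8 in BRG1 4, against 53.4 in control 1 and 55.6 in control 4. The one nearest to an end, from 42190488 to 42191153, stood at percentile 17.8 in BRG1 1 and 26.8 in BRG1 4, against 40.5 in control 1 and 16 in control 4. The order of the libraries differed between these regions, and in both the groups overlapped. Nearest to the other end, 9068 bp outside it, lay a faint peak of BRG1 1 alone, at percentile 3.02. ECM2, the next leucine-rich gene of the cluster, carried a gene-end peak in each of the 4 libraries.

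VCAN had the longest model, on chromosome 2 from 91682177 to 91811674, with peaks deep inside. The window held 8 peaks in BRG1 1 and 12 in BRG1 4, against 9 in control 1 and 11 in control 4. The strongest region, from 91700922 to 91702067, lay 18745 bp inside the lower-coordinate end. It stood at percentile 89.2 in BRG1 1 and 96.4 in BRG1 4, against 94.5 in control 1 and 92.2 in control 4. The summit held 191 tags in BRG1 1 and 268 in BRG1 4, against 280 in control 1 and 229 in control 4. BRG1 1 was the lowest on both measures. It also had the lowest relative depth, and the part of depth in these values was not tested.

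A cluster of regions surrounded it. The next region, from 91702336 to 91702819, stood at percentile 78.5 in BRG1 1 and 70.3 in BRG1 4, against 80.3 in control 1 and 78.3 in control 4. Another, from 91702978 to 91703212, was called in BRG1 4 at percentile 63.6 and in control 4 at 31.1, and in neither library numbered 1. A further 2 faint regions, 59511 and 61608 bp inside the model, were also called in BRG1 4 and control 4 alone, at percentiles between 3.20 and 9.88. Nearest to the ends of VCAN were shared regions 11572 bp outside the lower-coordinate end and 1690 bp outside the other. The region 1690 bp away, from 91813364 to 91813669, stood at percentile 39.4 in BRG1 1 and 35.6 in BRG1 4, against 55.9 in control 1 and 57.6 in control 4. Both BRG1 libraries were the lower there, an order that was not counted over the genome.

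**Figure D2:**
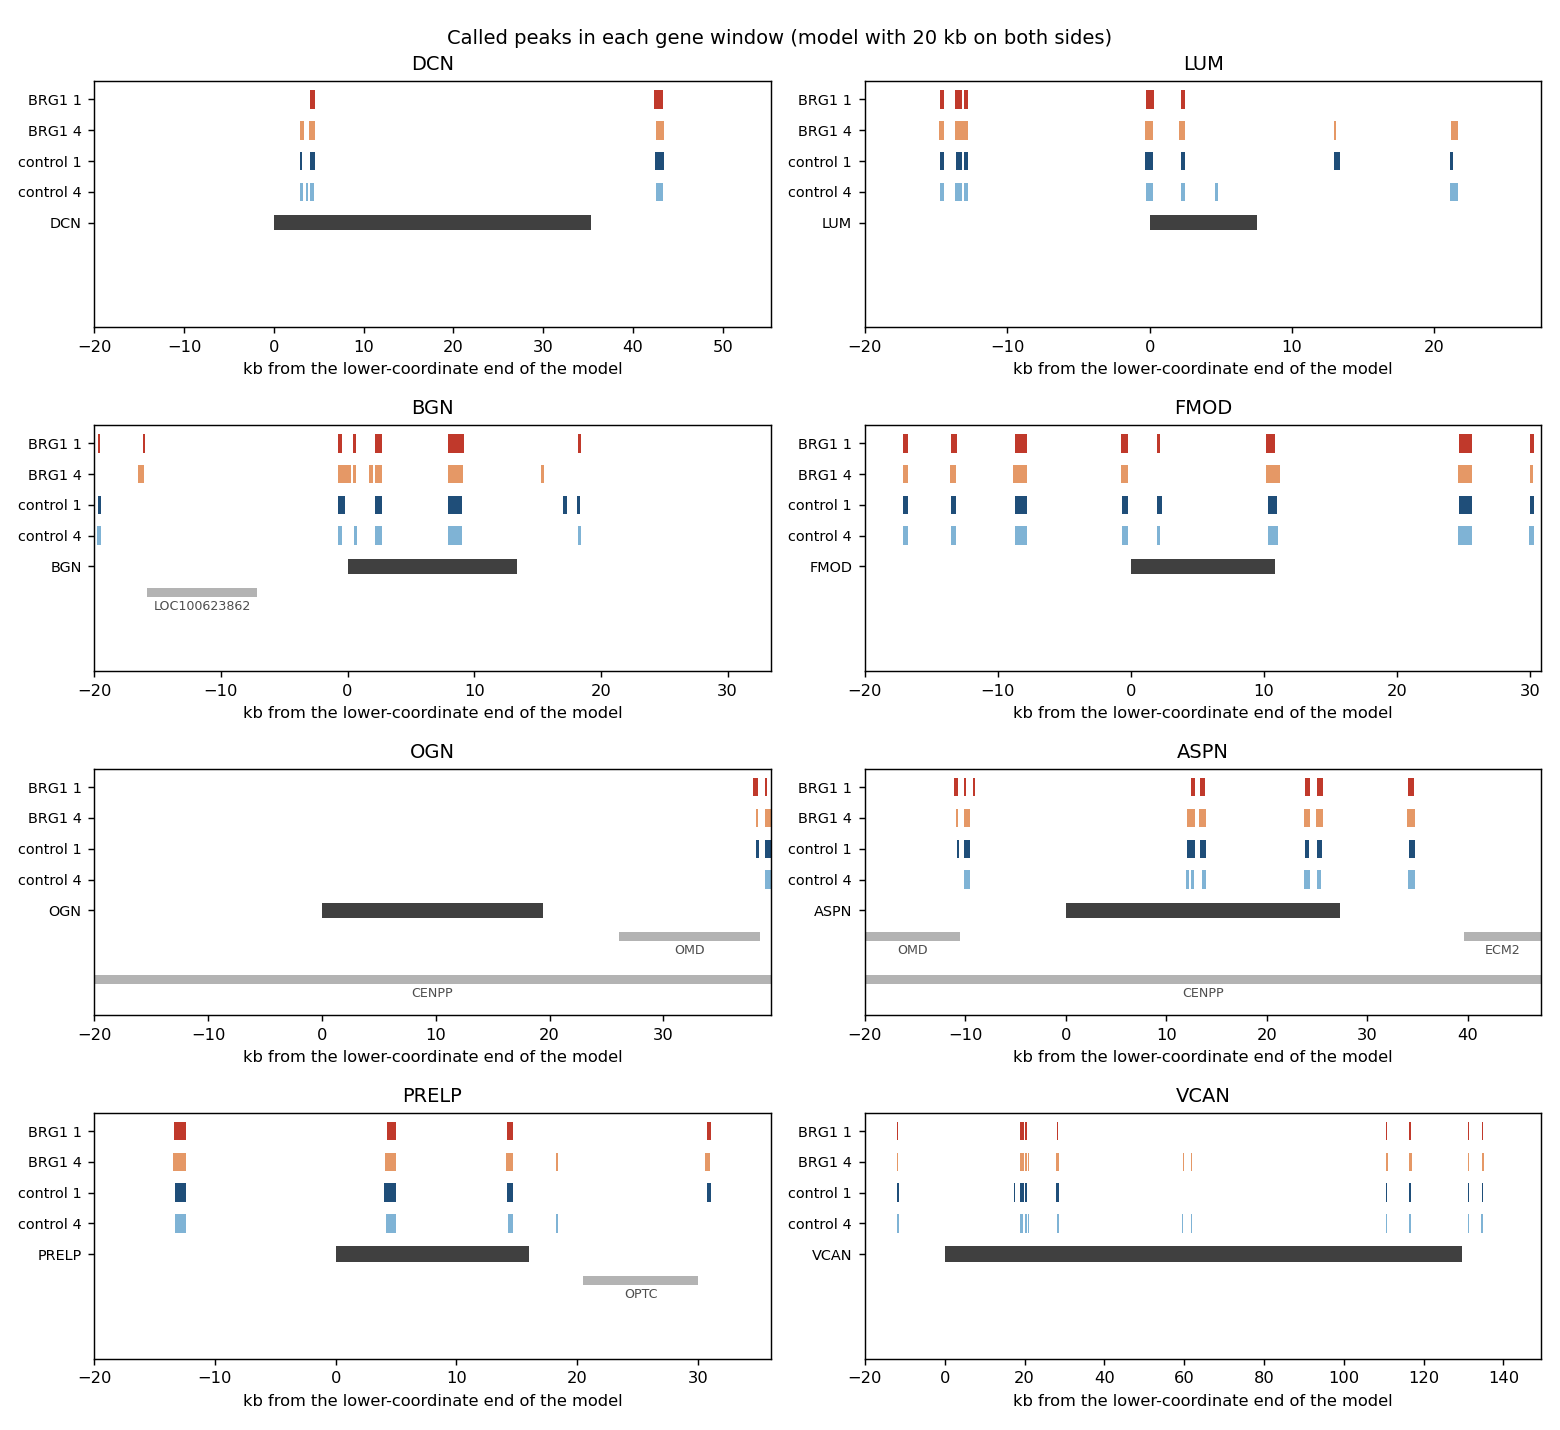
Peaks called in each library (coloured bars, BRG1 1, BRG1 4, control 1 and control 4 from top to bottom) along each gene window, in kb from the lower-coordinate end of the model (dark bar); other protein-coding models are grey. The DCN, OGN, ASPN, PRELP and VCAN models have no peak within 1 kb of either end. LUM and BGN have one at the lower-coordinate end, and FMOD has one at both.

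HAPLN1 lies 45821 bp beyond VCAN and encodes the link protein that ties versican to hyaluronan. In its own window the groups did not overlap, with 3 peaks in BRG1 1 and 1 in BRG1 4, against 7 in control 1 and 5 in control 4. The length under peaks was 1573 bp in BRG1 1 and 1044 bp in BRG1 4, against 2585 bp in control 1 and 2185 bp in control 4. Fewer peaks in both BRG1 libraries were found in 20.4% of windows with any peak, and less length in 14.6%. Lists of equal length, tried here after these values were seen, gave the same values in BRG1 1, BRG1 4 and control 4, and 6 peaks and 2294 bp in control 1. No test was made for HAPLN1. It held 2 control-only regions, with a peak in both control libraries and in neither BRG1 library, where 20.2% of gene windows held at least 1. The one across its higher-coordinate end, from 91935423 to 91935705 on chromosome 2, stood at percentile 24.5 in control 1 and 15.5 in control 4. A shared region 545 bp outside that end ran the other way, at percentile 84.2 in BRG1 1 and 86.4 in BRG1 4, against 75.7 in control 1 and 79.7 in control 4.

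Across the 8 windows, most regions were common to both groups. Of the 55 regions, 33 (60.0%) were called in all 4 libraries, where 61.8% of all regions were. BRG1-only calls made up 1 of the 55, where 0.741% of all regions were such, and control-only calls 0 of the 55, where 4.41% were. Thus 1 of the 8 genes had a BRG1-only region in its window, where 4.48% of windows had one, and none had a control-only region. The other 21 regions had mixed patterns. For regions shared by the 4 libraries the median of the mean percentile was 58.4 here and 60.6 over the genome. Regions missing from at least 1 library had a median of 13 here and 14.4 over the genome, so that the less shared calls were weak in both. In several shared regions, among them ones named at LUM, BGN, FMOD, PRELP and VCAN, both BRG1 percentiles lay below both control percentiles. The reverse was rarer. The BRG1 lists were shorter, and the share of this order over the genome was not counted.

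**Figure D3:**
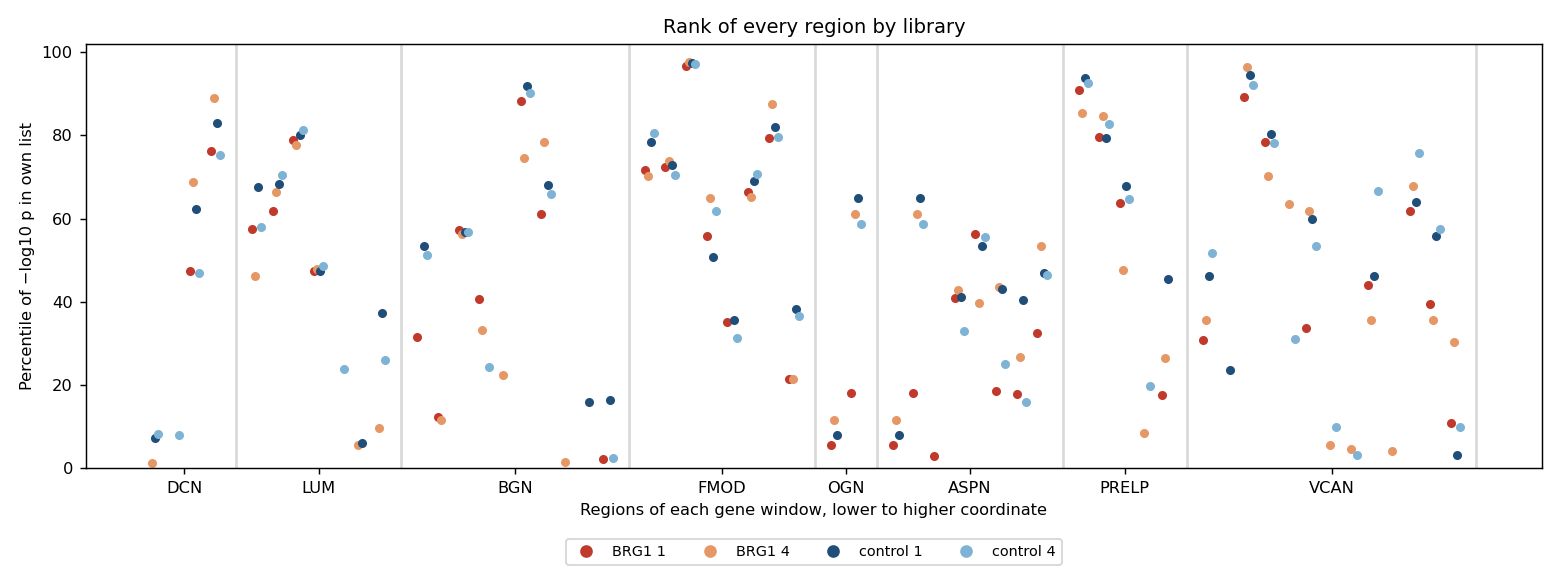
Percentile of the deposited −log10 p-value within its own list (vertical axis) for each region of each gene window (horizontal axis, lower to higher coordinate), with 1 point for each library in which the region was called. In many regions the points of the groups overlap. In several shared regions both BRG1 points lie below both control points, more often than the reverse. The share of this order over the genome was not counted, and the BRG1 lists are shorter. The strongest region, in the window of FMOD, stands between 96.8 and 97.6 in all 4.

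The 8 windows merge into 6 loci of 563954 bp. These held 42 peaks in BRG1 1 and 47 in BRG1 4, against 44 in control 1 and 47 in control 4. BRG1 libraries averaged 44.5 ± 3.54 peaks and control libraries 45.5 ± 2.12 (SD, n = 2 each), a ratio of 0.978. Peaks covered 20361 bp in BRG1 1 and 26132 bp in BRG1 4, against 22276 bp in control 1 and 21901 bp in control 4, a ratio of 1.05. In covered length the BRG1 libraries lay on either side of the controls, and in peak number BRG1 4 equalled control 4.

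BRG1 4 had the greatest length under peaks at all 8 genes, where it did so in 55.9% of all gene windows with a peak. The windows of OGN and ASPN share regions, so these are not 8 separate observations. In the 33 regions called in all 4 libraries, BRG1 4 alone had the widest peaks in 20, where it did in 51.4% of all such regions. The median length per region was 508 bp in BRG1 1 and 602 bp in BRG1 4, against 534 bp in control 1 and 517 bp in control 4. The wider peaks of that library across the genome move with the result, and their part in it was not tested.

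**Figure D4:**
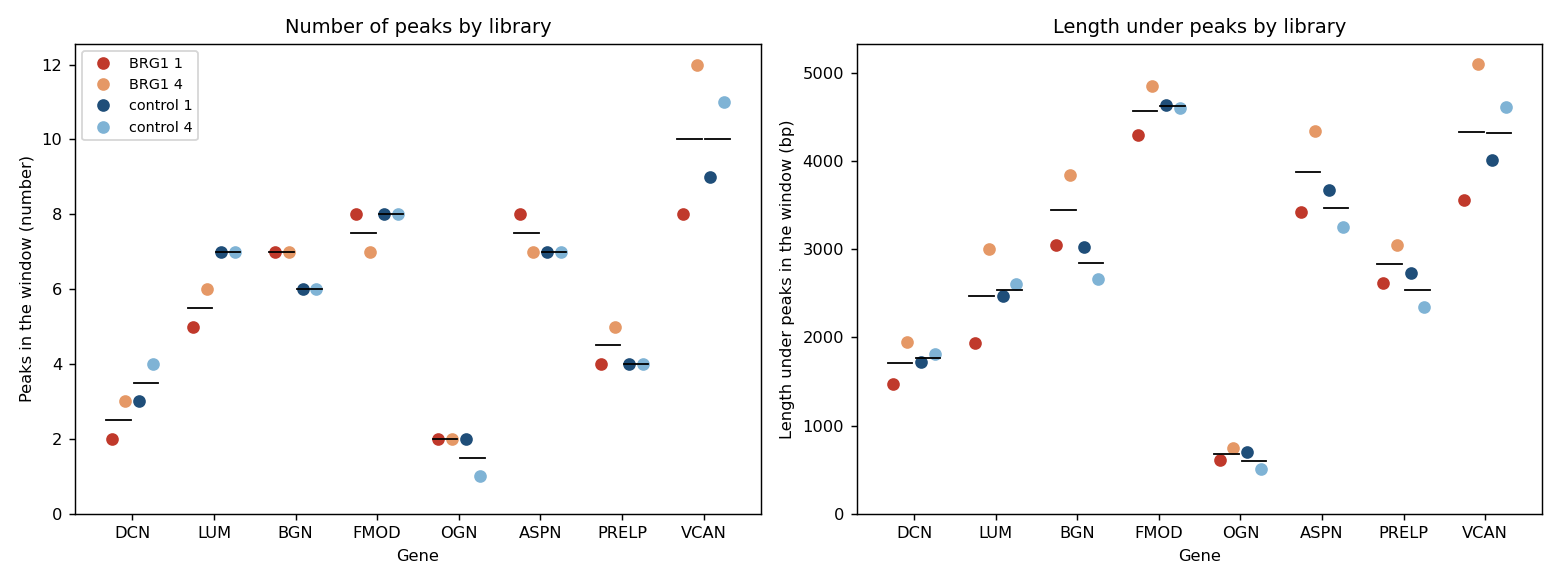
Number of peaks (left) and length under peaks in bp (right) in the window of each gene, with 1 point per library and a line at each group mean (n = 2). BRG1 4 is the highest library for length at all 8 genes, while only LUM and BGN have peak numbers that do not overlap between BRG1 and control libraries.

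Genes of the same biochemistry mostly carried gene-end peaks, to be read beside the 68.2% of all models. Of 11 other leucine-rich proteoglycan genes, 7 carried them in each library, OPTC in 3 and KERA, EPYC and CHADL in none. Of 23 other matrix and cell-surface proteoglycan genes 17 had one in all 4, and those with none were ACAN, the aggrecan gene of cartilage, NCAN, the neurocan gene of brain, PRG4, the lubricin gene, SRGN, the serglycin gene of blood cells, and GPC6, a glypican. SPOCK2, a testican gene, had one in BRG1 1, BRG1 4 and control 1. Of 12 matched hyaluronan genes (14 listed) 11 had one in all 4 and HYAL2, a hyaluronidase gene, had none. Of 21 matched genes (22 listed) of the linker and of chondroitin and dermatan sulfate synthesis, 20 had one in all 4, and CHST7, a sulfotransferase gene, lacked it in control 1. Of 3 matched keratan sulfate genes (6 listed) 2 had one in all 4, and B3GNT7, a chain-extending enzyme, had none.

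BRG1-only and control-only calls were counted in the same lists. Windows with a BRG1-only region were 1 of 11 among the other leucine-rich genes, at PODNL1, and 1 of 23 among the other proteoglycans, at HSPG2, the perlecan gene. Among the 21 synthesis genes there were 2, at CHSY1, a chondroitin synthase, and CHST11, a sulfotransferase. There was none among the hyaluronan or keratan sulfate genes. Windows with a control-only region were 1 of 11 for the other leucine-rich genes, 8 of 23 for the other proteoglycans, 9 of 21 for the synthesis genes, 1 of 12 for the hyaluronan genes and 2 of 3 for the keratan sulfate genes, at B3GNT7 and CHST2, a sulfotransferase. These counts are to be read beside the 4.48% and 20.2% of all windows given above. Some windows with a control-only region, such as those of GPC5, GPC6 and UST, are much longer than the median of 60650 bp over all genes. A longer window can hold more regions, and the counts were not adjusted for length.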

How the data were processed

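Chromatin accessibility had been measured by ATAC-seq in 4 libraries, 2 per group. Each library came as a narrowPeak list made by the authors. FastQC, BWA, Bowtie, SAMtools and MACS2 and the build Sscrofa11.1 are named without role or version, per the submitters' processing notes; how Tn5 shift and duplicates were handled is not given in the sources used here. The deposited fold is a ratio of summit pileup to background, and the authors computed −log10 of the p-value and of the q-value within each library. As deposited, the score equals 10 times the −log10 q-value, cut to a whole number. The deposited summit offset gives bases from the peak start.

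Peaks of all lists were merged where they overlapped by at least 1 bp. Summit tags and background were solved from fold and p-value with a pseudocount of 1 (tolerance 0.01 in −log10 p, for peaks below a −log10 p of 250). Total reads are unknown, and intervals for counting error could not be computed. For peak counts and covered length the groups were set against each other in a two-sided exact permutation test, where 2 against 2 libraries cannot go below p = 0.33. Gene positions came from RefSeq (Sscrofa11.1), without strand, exons or transcripts, so exon, intron and UTR positions were not assigned. Overlap counts were tested on simulated peaks. At most 0.202% of intervals were identical between any 2 lists.

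The genes, lists and tests were chosen with earlier results of these data known. Named regions were, per window, the strongest shared one, those nearest the ends, and those private to a group; named list genes were neighbours within 200 kb and those without a gene-end peak in all libraries. Regions and genes named beyond this rule, among them the list genes with BRG1-only regions, were chosen after their values were seen. Alternatives were a −log10 q of at least 5, lists of 90851 or 45425 top peaks, overlap of 50%, flanks of 10 or 50 kb, gene ends of 3 kb, omission of each library and a replicate block. Python 3.11.15, pandas 2.3.3, numpy 2.4.6 and scipy 1.17.1 were used. No sequence was used here.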

Additional observations from a re-analysis of the deposited data

How the results depend on the processing

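With 2 libraries a group the exact permutation p cannot go below 0.33, so it says nothing about the stability of the differences below. Differences are BRG1 minus control. With a −log10 q of at least 5 they turned to −147 bp at OGN, −0.5 peaks at ASPN and −49.5 bp at VCAN, with 0 BRG1-only and 1 control-only region. With lists of equal length they turned to 0.5 peaks and 280 bp at DCN, 139.5 bp at LUM and −23 bp at OGN, with 2 BRG1-only regions. With lists of 45425 peaks they turned to 110 bp at DCN, 138.5 bp at LUM, and 0.5 peaks and 476.5 bp at FMOD. They turned to −0.5 peaks and −251.5 bp at OGN, −0.5 peaks and −165 bp at PRELP and −50 bp at VCAN, with 15 shared regions. The groups then did not overlap in length at BGN, at 711 bp, or at LUM. The share of all gene windows without overlap was not counted for these shorter lists. Overlap of 50%, and a flank of 10 kb, gave 0 BRG1-only regions; the 10 kb flank also turned FMOD to 65 bp. A flank of 50 kb gave 52 shared and 2 control-only regions and turned FMOD to 135.5 bp, PRELP to −0.5 peaks and VCAN to −389 bp. DCN moved to −5.0 peaks, without overlap between the groups, and the share of windows with this order was not counted at 50 kb. The 3 kb window gave 6 genes with a peak at their ends in all libraries. Wider flanks hold more regions and shorter lists fewer peaks by construction; other causes were not tested.

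Leaving out each library gave −292 to 179 bp at DCN, −598 to 464 bp at LUM, −330 to 227 bp at FMOD, −18 to 177 bp at OGN, −45 to 873 bp at ASPN and −758 to 783 bp at VCAN. It gave 209.5 to 1002 bp at BGN and 86 to 515 bp at PRELP, lowest without BRG1 4 and highest without BRG1 1, and −2.0 to 2.0 peaks at VCAN, which had no difference in peaks with all libraries. It gave 2 to 4 BRG1-only and 2 to 3 control-only regions, since a call then needed fewer libraries. Without BRG1 4 the ratio of covered length was 0.922 and without BRG1 1 it was 1.18. The gene-end count stayed at 3 without each library in turn. With the replicate block the ratios were 0.977 for peaks and 1.05 for length, and for single genes the smallest exact sign-flip p was 0.5, the lowest possible. The deviations of same-numbered libraries had a correlation of −0.0100 over 121788 regions, so they did not move together. The labels do not say that a number marks a shared culture. Of 237 values under all settings, 28 changed direction, 13 fell to no difference and 25 other values moved in size or away from no difference. The other 171 include differences that kept their direction and changed in size, such as those of DCN and BGN above. A missing peak means that none was called at that depth, not that the chromatin was closed.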
